A study of Rattus norvegicus with 30 samples.

Results

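The genes of the cytosolic ribosome encode the proteins that, with ribosomal RNA, form the large (60S) and small (40S) subunits of the ribosome that translates nuclear-encoded messages. Members were taken by symbol: rows beginning with Rpl or Rps and a digit, Rplp0 to Rplp2 and Rpsa, without the S6 kinases (Rps6k) and without symbols that hold "-ps", at a summed count of at least 300 over all libraries. Of 85 rows with such symbols in a table of 17455 genes, 80 reached that count, 48 of them named for the large and 31 for the small subunit. The remaining member, Rps19bp1, encodes a nucleolar binding partner of RPS19 and is no ribosomal subunit. All 80 passed the filter on low counts and were tested, so no member was lost there.

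RNA was measured in 30 polyA-selected libraries of rat dorsal hippocampus in 8 groups, the combinations of sex, genotype and diet. The alzheimer genotype is TgF344-AD, a line that carries mutated human transgenes of familial Alzheimer's disease, human APP among them, under the mouse prion promoter, and the other genotype is wildtype. Rats received either chow, the standard diet, or a western diet, and the labels used here name no age. Libraries keep the running number of their label as replicate number, each group held 3 or 4 libraries, and the labels name 2 cohorts, with 14 libraries in cohort 1 and 16 in cohort 2. The amyloid precursor gene App stood between 3137 and 3399 CPM (counts per M library counts, with M for mega, after TMM scaling) in the 15 alzheimer and between 1548 and 1782 CPM in the 15 wildtype libraries. Library totals had a median of 17.8 M counts, from 13.93 to 31.42 M, and the common biological coefficient of variation was 6.27%. Summed neuronal markers (Rbfox3, Snap25, Syt1, Slc17a7, Gad1, Gad2) stood between 5939 and 6851 CPM in all libraries, so neuronal messages were present throughout. The labels do not say that each library came from a separate animal, so p-values measure the spread between these libraries.

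Ribosomal protein genes are expressed in every cell, and their products are assembled together into ribosomes. Many of their messages begin with a C followed by a run of pyrimidines, the 5′ terminal oligopyrimidine (TOP) motif, through which the kinase complex mTORC1 and the RNA-binding protein LARP1 control their translation and stability. Neurons also hold ribosomes and ribosomal protein messages in their dendrites and axons, and local protein synthesis there is known to take part in hippocampal plasticity.

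The table counts each symbol once, and this gene family has more processed copies in the genome than most. RefSeq (assembly GRCr8) lists 1192 genes under ribosomal protein symbols, of which 869 are pseudogenes and 306 protein coding. At least 1 named copy was found for 75 of the 80 members, with a median of 13 copies and a highest of 36 for Rps2, a small-subunit protein near the mRNA entry. How reads that fit several copies were counted is unknown here, so the levels of these members are uncertain. Summed counts of the members ranged from 363 for Rpl3l, a paralog of Rpl3 best known from striated muscle, to 294243 for Rpl3, with a median of 95917. Just under the minimum lay Rps19 with 207 and Rpl39l, a paralog of Rpl39, with 173 counts, while Rpl37a had 57 and both Rps9 and Rps9l1 had 0. Rps9, Rps19 and Rpl37a belong to every ribosome and have 17, 20 and 17 named copies. Among the members, 5 stayed under 2000 summed counts, namely Rpl3l, Rplp2 (683), Rpl7a (1114), Rps4y2 (1303) and Rps6 (1425). Their values are uncertain and are given apart. Counts are not scaled to gene length, so levels of different genes are not compared.

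Start sites were compared with the TOP motif because the members moved together. RefSeq promoter entries (GRCr8) exist for 64 of the 80 members. A run of at least 8 pyrimidines on the gene's strand, overlapping the 5 bases on either side of the annotated start, was found in 38 of these 64 members (59.4%), in 9.77% of all 27457 genes with an entry and in 6.35% of 63 mitochondrial ribosomal protein genes. The annotated start itself was a C in 50% of the members and in 27.2% of all genes. CGGAAG, the core bound by the GABP and ETS family, lay on either strand of the 300-base window in 56.2% of the members, 50.8% of the mitochondrial set and 18.2% of all genes. AAGATGGC, the core bound by YY1, lay there in 7.81% of the members, 25.4% of the mitochondrial set and 3.62% of all genes, and since both motifs hold AAG a site of one can overlap a site of the other. Below are 5 members with low adjusted p or large differences in the comparisons that follow, and then 3 without a long run, each from 50 bases before to 30 bases from the start. Capitals mark the longest pyrimidine run that overlaps the 5 bases on either side of the start.
Rps23 (chr2:23814467-23814546, + strand): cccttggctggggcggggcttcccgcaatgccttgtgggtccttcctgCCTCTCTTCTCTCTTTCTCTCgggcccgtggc
Rplp1 (chr8:71290843-71290922, - strand): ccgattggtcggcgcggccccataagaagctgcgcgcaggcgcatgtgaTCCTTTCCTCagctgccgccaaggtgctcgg
Rpl12 (chr3:36661890-36661969, + strand): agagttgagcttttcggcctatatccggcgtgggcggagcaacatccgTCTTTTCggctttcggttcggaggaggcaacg
Rps24 (chr16:96467-96546, + strand): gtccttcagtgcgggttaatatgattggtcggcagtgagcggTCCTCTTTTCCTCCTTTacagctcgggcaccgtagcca
Rpl31 (chr9:49143061-49143140, + strand): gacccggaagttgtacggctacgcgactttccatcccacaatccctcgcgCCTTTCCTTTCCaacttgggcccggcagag
Rps19bp1 (chr7:113692994-113693073, - strand): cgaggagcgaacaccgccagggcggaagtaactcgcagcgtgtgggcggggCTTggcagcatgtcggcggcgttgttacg
Rpl22l1 (chr2:113683146-113683225, + strand): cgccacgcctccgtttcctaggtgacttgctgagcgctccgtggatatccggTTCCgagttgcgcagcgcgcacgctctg
Rpl3l (chr10:14258396-14258475, + strand): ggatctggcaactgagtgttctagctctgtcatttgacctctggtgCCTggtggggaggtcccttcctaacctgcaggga
The run was 21 bases long in Rps23, 17 in Rps24, 12 in Rpl31, 10 in Rplp1 and 7 in Rpl12, which falls short of the 8 searched for. It was 4 bases long in Rpl22l1 and 3 bases in both Rps19bp1 and Rpl3l. None of these 3 was called in the genotype comparison below. Called there were Rpl41, Rpl26 and Rps12, which are not printed and have runs of 1, 3 and 3 bases. A match describes the annotated sequence only and is no measured start site.

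The question behind the genotype comparison is how the model's hippocampus differs from wildtype. Messages of the cytosolic ribosome were lower in alzheimer than in wildtype libraries by a small amount. The log2 fold change, averaged over sex and diet, was below 0 for all 80 members, with a median of −0.092, a fall of 6.20%. Of the 80 members, 59 were called lower at a Benjamini-Hochberg adjusted p under 0.05 (edgeR quasi-likelihood F test) and 0 were called higher, beside 3.89% of all 12547 tested genes called lower. At an unadjusted p under 0.05, 72 were lower and 0 higher, and DESeq2 and limma-voom called 61 and 59 lower and 0 higher. Of all 12547 genes, 1337 were lower and 1455 higher at an unadjusted p under 0.05 (edgeR). The median over all tested genes was 0.0020.

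Both subunits took part. Of the large-subunit genes 34 of 48 were lower, with a median of −0.088, and of the small-subunit genes 25 of 31, with a median of −0.099. The ribosome of mitochondria is built from a separate set of nuclear genes, Mrpl and Mrps. Of these, 3 of 68 were called lower and 0 higher, with a median of −0.038, and 54 of 68 were below 0. At an unadjusted p under 0.05 (edgeR), 15 of the 68 were lower and 0 higher. The difference between the sets was not tested. Summed over all members, the level ran from 14323 to 15639 CPM in alzheimer libraries with a median of 14753, and from 14337 to 16680 CPM in wildtype libraries with a median of 15751. The ranges overlap, and 14 of 15 alzheimer libraries lay below the mean of the wildtype group of their own sex and diet. The members took between 1.43% and 1.66% of all counts in a library. In bulk tissue, fewer cells of a type that is rich in these messages and less message per cell cannot be told apart.

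**Figure D1:**
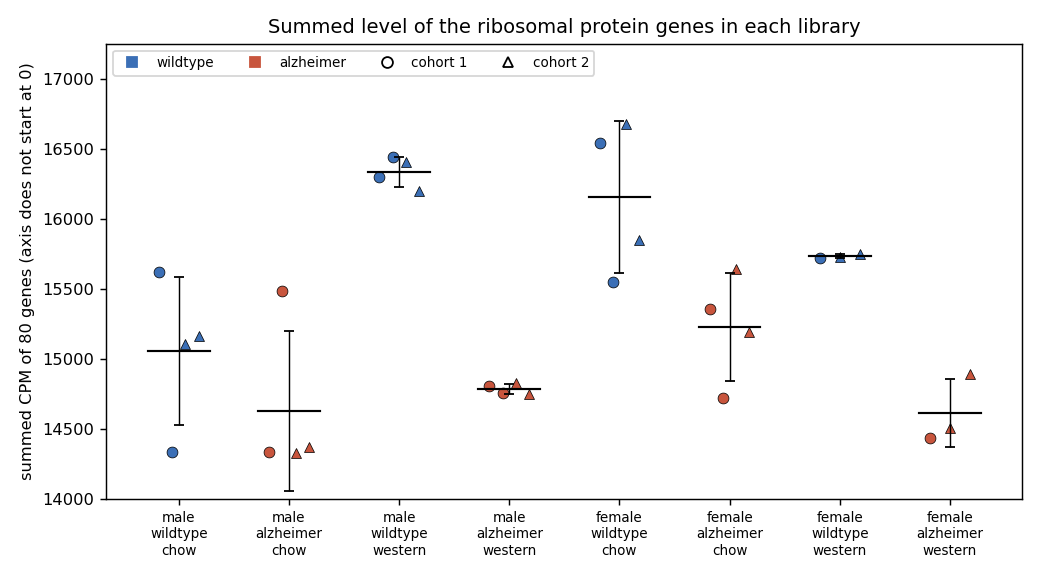
Summed CPM of the 80 ribosomal protein genes in each library (y axis, not starting at 0) by group; circles are cohort 1, triangles cohort 2, lines and bars the mean ± SD of 3 or 4 libraries. On the western diet alzheimer libraries (14436 to 14892) lie below all wildtype libraries (15723 to 16440), while on chow the ranges overlap.

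Among single members, Rps23, which lies at the decoding centre of the small subunit, had the smallest p. It ran from 266 to 293 CPM in alzheimer (median 280) and from 283 to 329 CPM in wildtype libraries (median 304). All 15 alzheimer libraries lay below the wildtype mean of their sex and diet, though the pooled ranges overlap. The log2 fold change was −0.12 ± 0.018 (SE, adjusted p = 2.08e-05). Rpl12, which binds ribosomal RNA at the base of the stalk where elongation factors dock, ran from 157 to 184 CPM in alzheimer (median 172) and from 166 to 205 CPM in wildtype (median 191). It was lower in 14 of 15 alzheimer libraries than the matching wildtype mean, by −0.14 ± 0.022 (adjusted p = 4.63e-05). Rplp1, an acidic protein of that stalk, ran from 300.2 to 380 CPM in alzheimer (median 333) and from 325 to 414 CPM in wildtype (median 365). The ranges overlap here too, and the log2 fold change of −0.14 ± 0.028 (adjusted p = 0.0013) was the largest among called members.

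Further members had large called differences. Rpl31, Rpl26 and Rpl39, which line or surround the exit of the peptide tunnel, fell by 0.14, 0.13 and 0.12 on the log2 scale (SE 0.026, 0.025 and 0.037). The call of Rpl39 was lost in 21 of 42 alternative settings, among them limma-voom (adjusted p = 0.0531) and the fits without any 1 of replicates 1, 3, 5, 9, 10, 11, 12, 14, 15, 17, 18, 24, 25, 28 and 29, with adjusted p from 0.0135 to 0.453 over the settings. Rpl31 averaged 211 ± 12.1 CPM over the alzheimer and 232 ± 11.8 CPM over the wildtype libraries (SD, n = 15 each). Rpl41, a very short basic peptide of the large subunit, fell by 0.14 ± 0.028, from 291 ± 13.7 to 265 ± 17.6 CPM. Rps24, a small-subunit protein whose human counterpart is mutated in Diamond-Blackfan anaemia, fell by 0.13 ± 0.028. The small-subunit genes Rps12 and Rps15 fell by 0.13 ± 0.023 and 0.12 ± 0.022, and Rpl13a, also known from a complex that silences inflammatory messages, fell by 0.12 ± 0.022. The plot of ranked genotype differences shows these members beside the rest.

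**Figure D2:**
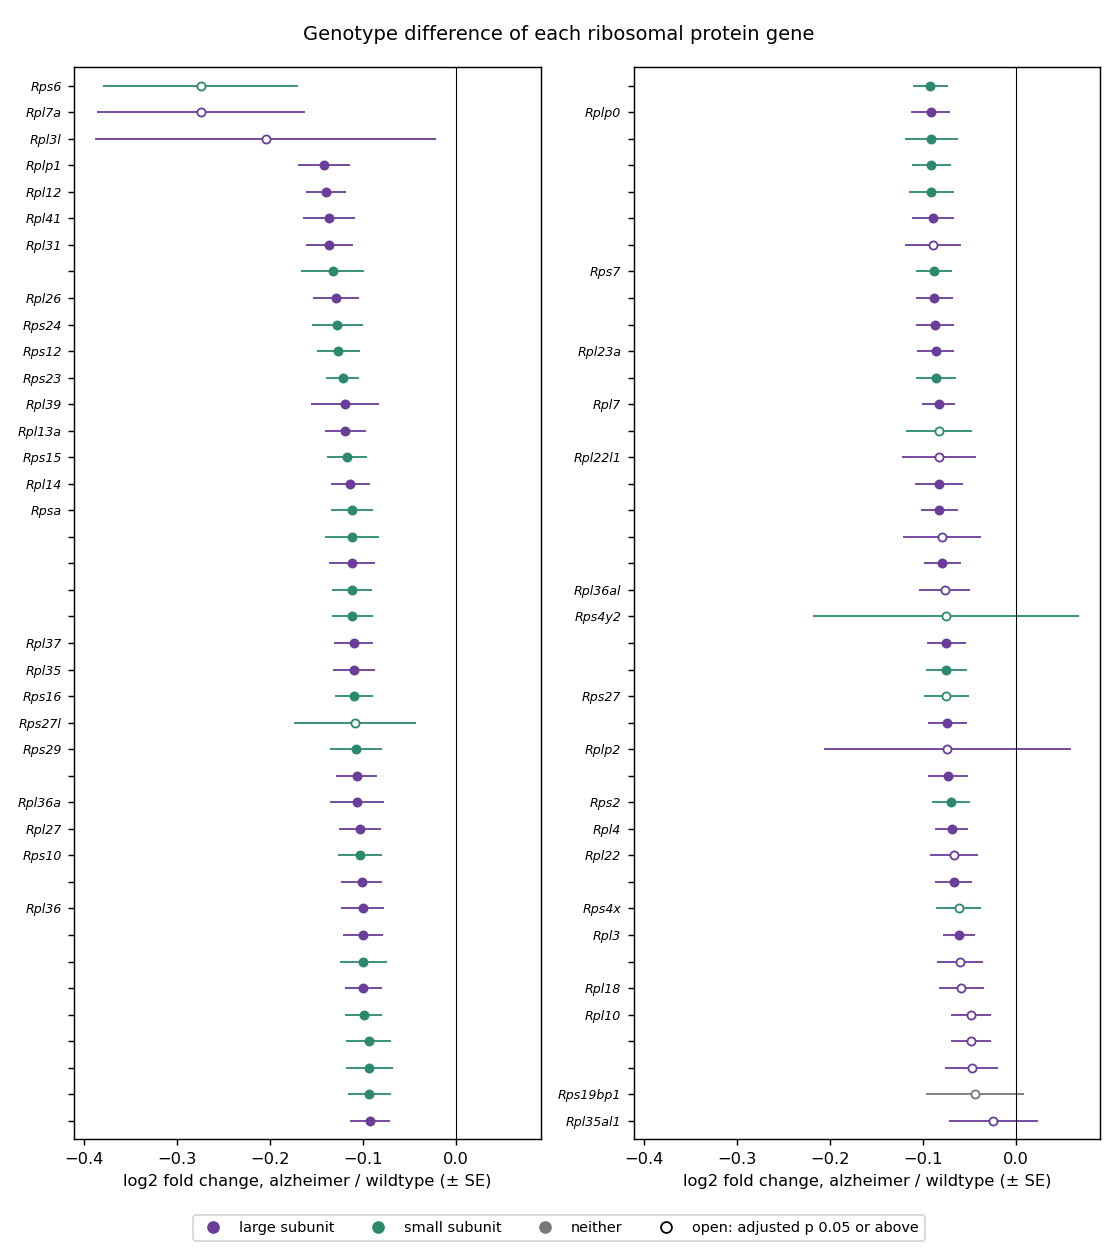
Log2 fold change between alzheimer and wildtype (x axis, ± SE) of each of the 80 genes, ranked; purple is the large and green the small subunit, and open points did not pass the test. Only genes named in the text are labelled, and all 80 points lie below 0, the 59 filled points between −0.14 and −0.061.

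Members that did not pass the test had values on the same side. The smallest difference was −0.024 ± 0.048 for Rpl35al1, which RefSeq lists as Rpl35a, and Rps19bp1, which is no ribosomal subunit, had −0.043 ± 0.053 (adjusted p = 0.696). Rps6, the substrate of the S6 kinases, and Rpl7a had the lowest values of all, −0.27 ± 0.11 each (adjusted p = 0.106 and 0.131), at only 1425 and 1114 summed counts. Rps6 averaged 2.35 ± 0.466 CPM over the alzheimer and 2.84 ± 0.536 CPM over the wildtype libraries. Rpl3l, at the minimum count, had −0.20 ± 0.18 (adjusted p = 0.564). Rplp2, the partner of Rplp1 in the stalk, had −0.073 ± 0.13, with 683 counts.

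Paralogs were compared with their main copy. Rpl22 and Rpl22l1, which can replace each other in the large subunit, had −0.067 ± 0.026 and −0.083 ± 0.040, and neither passed (adjusted p = 0.112 and 0.214). Rps27 did not pass at −0.074 ± 0.024 (adjusted p = 0.0511), and Rps27l, a target of p53, had −0.11 ± 0.066. Rpl36a was called lower at −0.11 ± 0.029, and Rpl36al had −0.076 ± 0.027 (adjusted p = 0.084). Rps4x had −0.061 ± 0.024 and Rps4y2 −0.075 ± 0.14. Rpl3, whose paralog Rpl3l is given above, was called lower at −0.061 ± 0.017, and Rpl7, whose paralog Rpl7l1 was not analysed here, at −0.083 ± 0.018. Rpl10, a late-joining large-subunit protein, had −0.048 ± 0.022 (adjusted p = 0.174), and its paralog Rpl10l was not analysed here. For none of these pairs was the difference between the paralogs tested.

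Genes of the cytosolic ribosome that carry other names were lower as well. Rack1, the scaffold protein on the head of the small subunit, fell by 0.16 ± 0.021 (adjusted p = 1.73e-06), and Fau, a fusion of a ubiquitin-like protein with a small-subunit protein, by 0.11 ± 0.023. Both were called. For Rack1 the 15 alzheimer libraries ran from 189 to 212 CPM and the wildtype libraries from 198 to 237 CPM, with overlap. Of 17 tested elongation factors and other known TOP messages, 5 were called lower and 0 higher, with a median of −0.048. They were Eef1g (−0.11 ± 0.018), Eef1b2 (−0.10 ± 0.022), Tpt1 (−0.087 ± 0.022), Eef2 (−0.078 ± 0.017) and Eef1a1 (−0.069 ± 0.017). Eef1a1 brings aminoacyl-tRNA to the ribosome, Eef1b2 and Eef1g reload it with GTP, and Eef2 moves the ribosome along the message.

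Over all tested genes 4.14% were called higher and 3.89% lower. Among 25 initiation factors 1 was higher, Eif1a by 0.15 ± 0.034, and 1 lower, Eif1 by −0.073 ± 0.018, both of which help the small subunit scan for a start codon, and the median was −0.014. Among 33 genes of ribosome assembly and RNA polymerase I, 1 was lower and 0 higher, with a median of 0.015. This was Sbds, which helps release the anti-association factor from new large subunits (−0.13 ± 0.027). Among 29 genes of mTORC1 and the control of TOP messages, 2 were higher and 0 lower, the S6 kinase Rps6kb2 (0.23 ± 0.064) and the MYC family gene Mycl (0.17 ± 0.053), with a median of 0.018. The other S6 kinase, Rps6kb1, had 0.051 ± 0.034 and did not pass (adjusted p = 0.402). These lists were drawn up with earlier results of these data known, and the differences between lists were not tested.

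Markers of several cell types moved with genotype as well. Astrocyte markers Slc1a3 and S100b were lower (−0.12 and −0.13) and Gfap higher (0.17), and the neuronal marker Syt1 was higher (0.10). Mbp of oligodendrocytes (−0.19), Aif1 and C1qa of microglia (−0.19 and −0.18), Cldn5 and Flt1 of endothelium (−0.11 each) and Rgs5 and Abcc9 of pericytes (−0.24 and −0.33) were lower. Thus 1 of 6 neuronal, 3 of 6 astrocyte, 1 of 6 oligodendrocyte, 2 of 6 microglial, 2 of 4 tested endothelial and 2 of 6 pericyte markers were called, and 0 of 5 choroid plexus, 0 of 6 ependymal and 0 of 2 blood markers (edgeR; at an unadjusted p under 0.05, 0, 1 and 0). Uncalled markers of a list could lie on the other side: P2ry12 and Tmem119 of microglia had 0.038 and 0.047, and Mag of oligodendrocytes 0.0055. Rbfox3 and Snap25 of neurons had −0.026 and −0.012. Below 0 were 2 of 6 neuronal, 3 of 6 astrocyte, 5 of 6 oligodendrocyte, 4 of 6 microglial, 4 of 4 endothelial and 6 of 6 pericyte markers. Summed oligodendrocyte markers ran from 7816 to 12720 CPM in alzheimer and from 7861 to 14050 CPM in wildtype libraries, microglial markers from 243 to 307 and from 247 to 335 CPM. Summed neuronal markers ran from 5939 to 6732 and from 6016 to 6851 CPM, astrocyte markers from 4116 to 4911 and from 3868 to 4810 CPM, endothelial markers from 190 to 242 and from 192 to 275 CPM, and pericyte markers from 93.8 to 132 and from 110 to 145 CPM. For choroid plexus they ran from 4.58 to 64.8 and from 4.24 to 37.8 CPM, for ependyma from 8.75 to 21.4 and from 10.9 to 28.02 CPM, and for blood from 59.2 to 134 and from 54.1 to 122 CPM. No marker row was at 0 in all libraries. The part of these cell types in the lower ribosomal protein level was not tested.

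The 2 cohorts gave like directions. In cohort 1 alone the median was −0.094 with 79 of 80 members below 0, and in cohort 2 alone it was −0.098, again with 79 of 80 below 0. Summed levels were 14841 ± 432 CPM in the alzheimer and 15787 ± 758 CPM in the wildtype libraries of cohort 1 (SD, n = 7 each), and 14812 ± 442 and 15861 ± 557 CPM in cohort 2 (n = 8 each). Calls differed: cohort 1 alone gave 0 called members (51 lower at an unadjusted p under 0.05, edgeR), beside 0.165% of all genes called lower, and cohort 2 alone gave 34, beside 2.33%. In cohort 1 both female western groups hold 1 library each. Leaving out any 1 library left between 53 and 64 members called. Rpl12 had −0.098 ± 0.035 in cohort 1 and −0.18 ± 0.027 in cohort 2, and Rps23 −0.12 ± 0.034 and −0.13 ± 0.025.

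Splitting the genotype comparison by diet asks whether the western diet changes the difference. On the western diet 44 of 80 members were lower and 0 higher, with a median of −0.13, beside 1.67% of all genes called lower. On chow 1 member was lower and 0 higher, with a median of −0.068, beside 0.359%. The difference between these effects was tested by the genotype-by-diet interaction, which called 0 members (11 lower and 0 higher at an unadjusted p under 0.05; 0 by DESeq2 and 0 by limma-voom) and 0% of all genes. Its median was −0.063, and 77 of 80 members had a negative interaction. Of all 12547 genes, 221 were lower and 225 higher at an unadjusted p under 0.05 (edgeR). The members with the smallest interaction p were Rps27 (−0.14 ± 0.048), Rpl36 (−0.13 ± 0.046) and Rps7 (−0.10 ± 0.039), none of which passed (adjusted p = 0.9999 each). So the western values were farther below 0 for 73 of the 75 members with at least 2000 counts, but a difference between diets was not shown for any member.

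**Figure D3:**
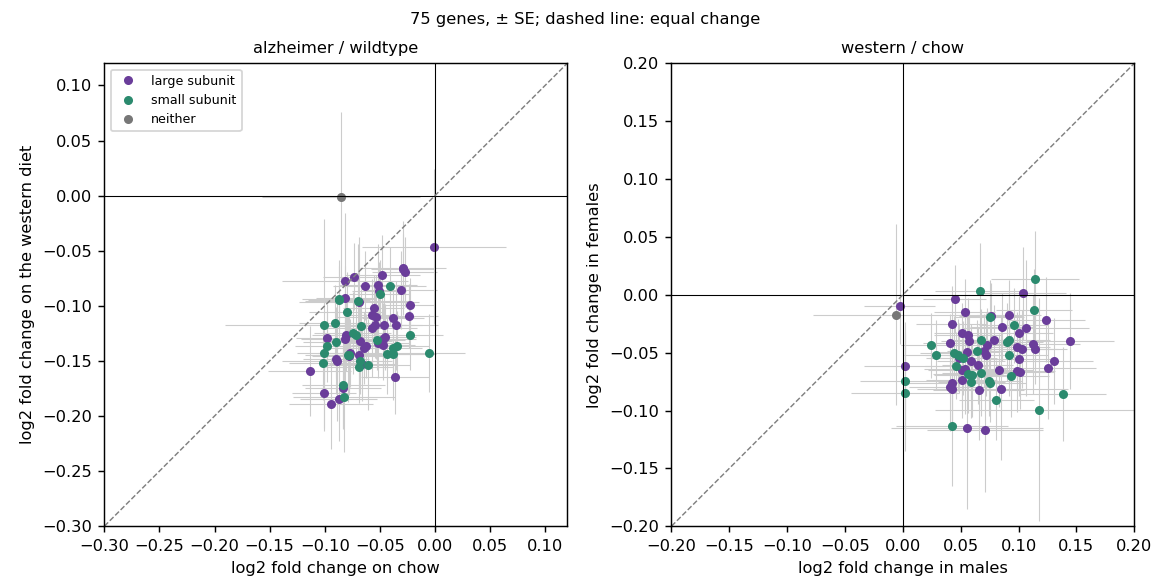
Left, log2 fold change between alzheimer and wildtype on chow (x) and on the western diet (y); right, log2 fold change between western and chow in males (x) and in females (y), each ± SE for 75 genes with at least 2000 summed counts. On the left all 75 points are below 0 on both axes and 73 lie below the line of equal change; on the right 70 are above 0 in males and below 0 in females.

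Single libraries were also compared by diet, with both sexes pooled. On the western diet the summed level ran from 14436 to 14892 CPM in 7 alzheimer and from 15723 to 16440 CPM in 7 wildtype libraries, with no overlap. For 28 of the 80 members every western alzheimer library lay below every western wildtype library, beside 0.63% of all tested genes, and they include Rps23, Rpl12, Rpl31, Rps12 and Rpsa. On chow this held for 0 members (0.143% of all genes), and over both diets, at 15 against 15 libraries, also for 0 (0.0319%). On chow the summed level ran from 14323 to 15639 CPM in 8 alzheimer libraries and from 14337 to 16680 CPM in 8 wildtype libraries. In chow females alone it ran from 14720 to 15639 CPM in alzheimer and from 15552 to 16680 CPM in wildtype libraries. In chow males it ran from 14323 to 15486 and from 14337 to 15617 CPM, so the ranges overlap within each sex too. Chow libraries spread more widely: male_wildtype_chow replicate 7, at 14337 CPM, lay among the lowest alzheimer libraries, with 77 of its 80 members below their median over all libraries. Male_alzheimer_chow replicate 8, at 15486 CPM, lay among wildtype libraries, with 31 of 80 members below their median. They were not the only such libraries. Female_alzheimer_chow replicates 16 and 10, at 15639 and 15353 CPM, had 19 and 33 of 80 members below their median. Male_wildtype_chow replicates 26 and 29, at 15105 and 15164 CPM, had 53 and 48.

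Rps23 on the western diet ran from 275 to 284 CPM in alzheimer and from 301 to 329 CPM in wildtype libraries, with no overlap, at a log2 fold change of −0.14 ± 0.026 (adjusted p = 0.00137). On chow it ran from 266 to 293 CPM and from 283 to 327 CPM, with overlap, at −0.10 ± 0.024 (adjusted p = 0.0316), the 1 member called there. This call was lost without any 1 of replicates 3, 4, 9, 14, 15, 19, 25, 26, 29 and 30, while 4 members were called on chow without replicate 7 and 7 without replicate 8. Rpl12 on the western diet ran from 164 to 176 CPM in alzheimer and from 178 to 205 CPM in wildtype libraries. It had the smallest p there, at −0.18 ± 0.032 (adjusted p = 0.000814), and on chow −0.10 ± 0.029 (adjusted p = 0.107). Among the largest called western differences were those of Rplp1 (−0.19 ± 0.041) and Rpl31 (−0.18 ± 0.038). Others were those of Rpl26 and Rps24 (−0.17 each), Rpl36 and Rpl41 (−0.16 each), Rpsa, named for its role as laminin receptor (−0.16), and Rps29, Rpl35 and Rps12 (−0.15 each). Rps27 had −0.14 ± 0.035 on the western diet (adjusted p = 0.0187) and −0.0057 ± 0.033 on chow.

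**Figure D4:**
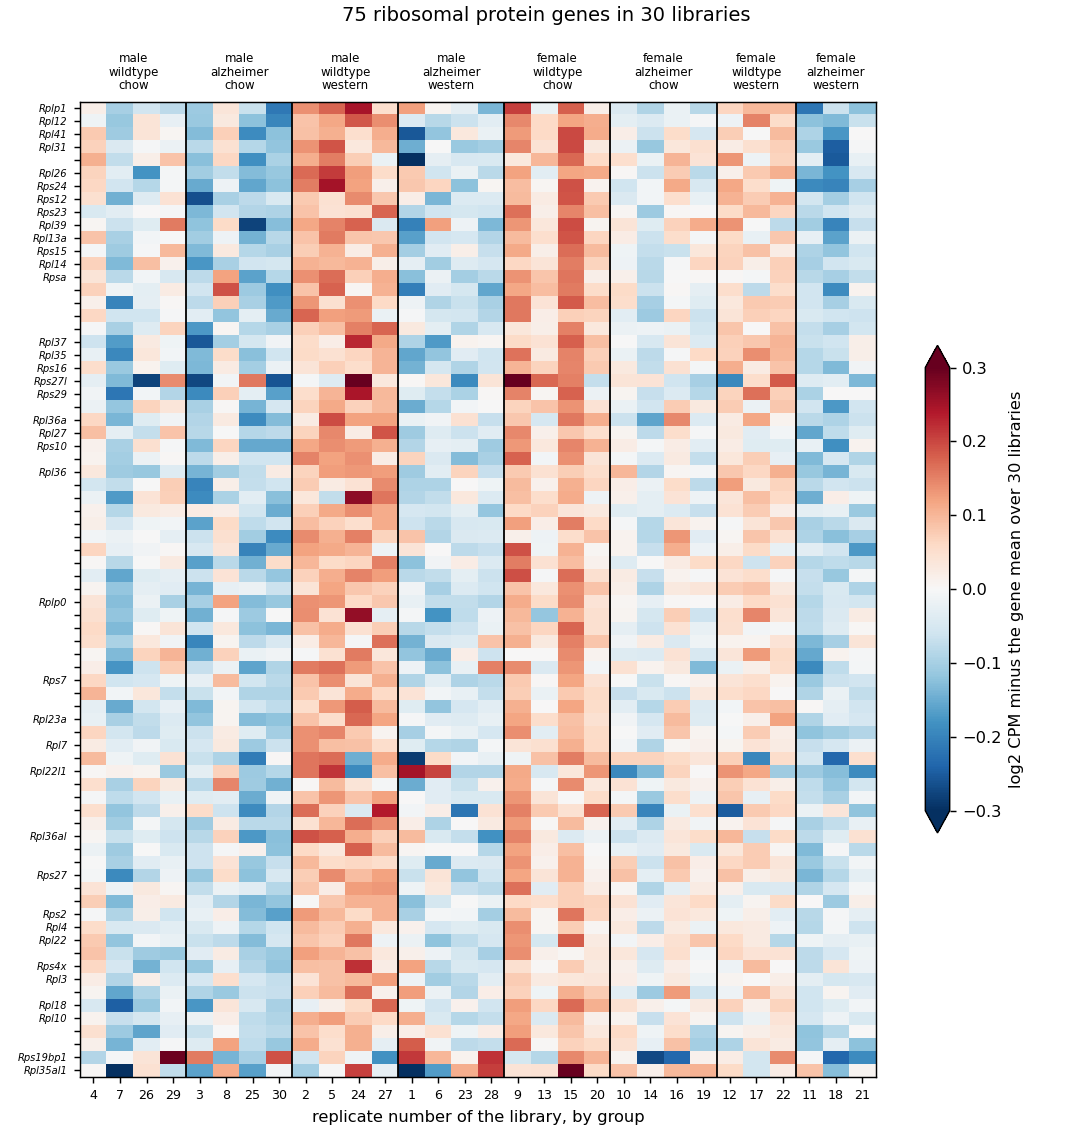
Log2 CPM of 75 ribosomal protein genes (rows, ordered by genotype difference, labelled where named in the text) in the 30 libraries (columns, by group, numbered by replicate), each as the difference from the gene's mean over all libraries, with colours capped at 0.3. Columns tend to be of 1 colour from top to bottom, red in most male and female wildtype western and female wildtype chow libraries and blue in most alzheimer libraries. Replicate 8 differs from the rest of its group, with 31 of 80 members below their median.

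Within each sex the members were lower in alzheimer as well. The median was −0.093 both in males and in females, with 79 of 80 members below 0 in each. In males 6 members were called lower and 0 higher, beside 0.566% of all genes. They were Rpl13a (−0.14 ± 0.030), Rps10 (−0.13 ± 0.032), which is modified on stalled ribosomes, Rpl12 (−0.13 ± 0.029), Rpl27 (−0.13 ± 0.031), Rpl14 (−0.12 ± 0.028) and Rps23 (−0.11 ± 0.024). In females 16 were called lower and 0 higher, beside 1.33%. Among the largest were Rplp1 (−0.19 ± 0.041), Rpl12 (−0.15 ± 0.031), Rps24 (−0.15 ± 0.040), Rpl26 and Rpl31, the small-subunit genes Rps15, Rps12, Rps23 and Rps16, and Rpl35 and Rpl36, with log2 fold changes from −0.14 to −0.12 in those without a value here. The genotype-by-sex interaction called 0 members (1 lower and 0 higher at an unadjusted p under 0.05; 0 by DESeq2 and 0 by limma-voom) and 0% of all genes, with a median of −0.0083. Its smallest p was that of Rps19bp1 (−0.23 ± 0.11), followed by Rpl22l1 (−0.15 ± 0.080) and Rplp2 (0.45 ± 0.27), none called (adjusted p = 0.9992 each). Of all 12547 genes, 264 were lower and 264 higher at an unadjusted p under 0.05 (edgeR).

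The counts within a sex rest on few libraries. In males 3 members were called without replicate 4, 10 without replicate 12, 14 or 21, 12 without replicate 18, 13 without replicate 13, 23 without replicate 7 and 36 without replicate 8. In females 5 were called without replicate 15 or 18, 6 without replicate 17, 7 without replicate 9, 11 or 14, 8 without replicate 19 or 22 and 9 without replicate 12. How many of all genes were called in these fits is not given here, so the moves are not set apart from those of other genes.

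Diet, averaged over sex and genotype, changed no member past the threshold. EdgeR called 0 of 80 (4 higher and 0 lower at an unadjusted p under 0.05), as did DESeq2 (0) and limma-voom (0), beside 0.00797% of all genes called in either direction. The median log2 fold change between western and chow was 0.0097. Of all 12547 genes, 292 were higher and 404 lower at an unadjusted p under 0.05 (edgeR). Within wildtype libraries these all-gene counts were 318 and 335, and within alzheimer libraries 206 and 282. Rps29 had the smallest p: it ran from 183 to 231 CPM on the western diet (median 199) and from 168 to 220 CPM on chow (median 192), with overlap, at 0.064 ± 0.028 (adjusted p = 0.848). Rps6 (0.23 ± 0.11, at low counts) and Rps4x (0.050 ± 0.024) followed. In wildtype libraries the median was 0.042, with 0 called (17 higher and 0 lower at an unadjusted p under 0.05; 0 by DESeq2 and 0 by limma-voom) and 0% of all genes called. In alzheimer libraries it was −0.017, with 0 called (1 lower and 0 higher at an unadjusted p under 0.05; 0 by each other tool) and 0% of all genes.

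The mean over the sexes joins values of opposite sign. In males the median log2 fold change between western and chow was 0.070, with 78 of 80 members above 0. In females it was −0.051, with 74 of 80 below 0. The summed level of wildtype males was 15056 ± 531 CPM on chow (14337 to 15617) and 16337 ± 108 CPM on the western diet (16202 to 16440), with no overlap (SD, n = 4 each). In alzheimer males it was 14628 ± 572 CPM on chow (14323 to 15486) and 14782 ± 37.0 CPM on the western diet (14749 to 14824), and the ranges overlap through replicate 8, the other 3 chow libraries being at 14323 to 14371 CPM. In wildtype females the summed level was 16156 ± 542 CPM on chow (15552 to 16680, n = 4) and 15734 ± 15.2 CPM on the western diet (15723 to 15751, n = 3). In alzheimer females it was 15226 ± 385 CPM on chow (14720 to 15639, n = 4) and 14612 ± 245 CPM on the western diet (14436 to 14892, n = 3). The diet ranges overlap in both female genotypes. Whether the male diet difference itself differed between genotypes was not tested. Neither was past the threshold for any member with edgeR: 0 in males (39 higher and 0 lower at an unadjusted p under 0.05; 2 higher by DESeq2, 0 by limma-voom), beside 0.128% of all genes, and 0 in females (14 lower and 0 higher; 0 by DESeq2 and 0 by limma-voom), beside 0.183%. In males 1 member was called without replicate 28 and 2 without replicate 8. Of all 12547 genes, 642 were higher and 734 lower in males at an unadjusted p under 0.05 (edgeR). In females these all-gene counts were 593 and 606. The test of the difference, the diet-by-sex interaction, called 3 members lower and 0 higher, beside 0.446% of all genes called lower. Its median was −0.12, with 78 of 80 members below 0 and 58 lower at an unadjusted p under 0.05, while the median over all tested genes was −0.0044. Of all 12547 genes, 848 were lower and 993 higher at that unadjusted p (edgeR). Of the 68 mitochondrial ribosomal protein genes 0 were called by edgeR (11 lower and 0 higher at an unadjusted p under 0.05; the other tools were not run on this set alone), with a median of −0.056.

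The called members were Rps24, Rpl23a and Rpl12. Rps24 ran in males from 96.1 to 112 CPM on chow (median 102) and from 98.4 to 127 CPM on the western diet (median 113). In females it ran from 103 to 122 CPM on chow (median 108) and from 93.3 to 116 CPM on the western diet (median 103). Pooled over genotype the ranges overlap in both sexes, with medians moving in opposite directions, and the interaction was −0.22 ± 0.055 (adjusted p = 0.0333). Rpl23a, which docks the signal recognition particle near the tunnel exit, had 181 ± 6.51 CPM on chow and 197 ± 10.8 CPM on the western diet in males (SD, n = 8 each), and 196 ± 8.63 (n = 8) and 190 ± 9.72 CPM (n = 6) in females. Its interaction was −0.16 ± 0.041 (adjusted p = 0.0369), again with overlap between diets when pooled over genotype. In wildtype males alone, Rpl23a ran from 178 to 188 CPM on chow and from 198 to 215 CPM on the western diet, with no overlap. Rpl12 had 172 ± 9.91 and 185 ± 13.5 CPM in males and 186 ± 9.70 and 178 ± 13.7 CPM in females, at −0.17 ± 0.043 (adjusted p = 0.0422). In wildtype males it ran from 166 to 185 CPM on chow and from 191 to 205 CPM on the western diet, also with no overlap. Rps24 in wildtype males ran from 100.9 to 111.8 CPM on chow and from 108.2 to 127.3 CPM on the western diet, with overlap. How many of all genes had no overlap between diets in wildtype males was not counted.

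**Figure D5:**
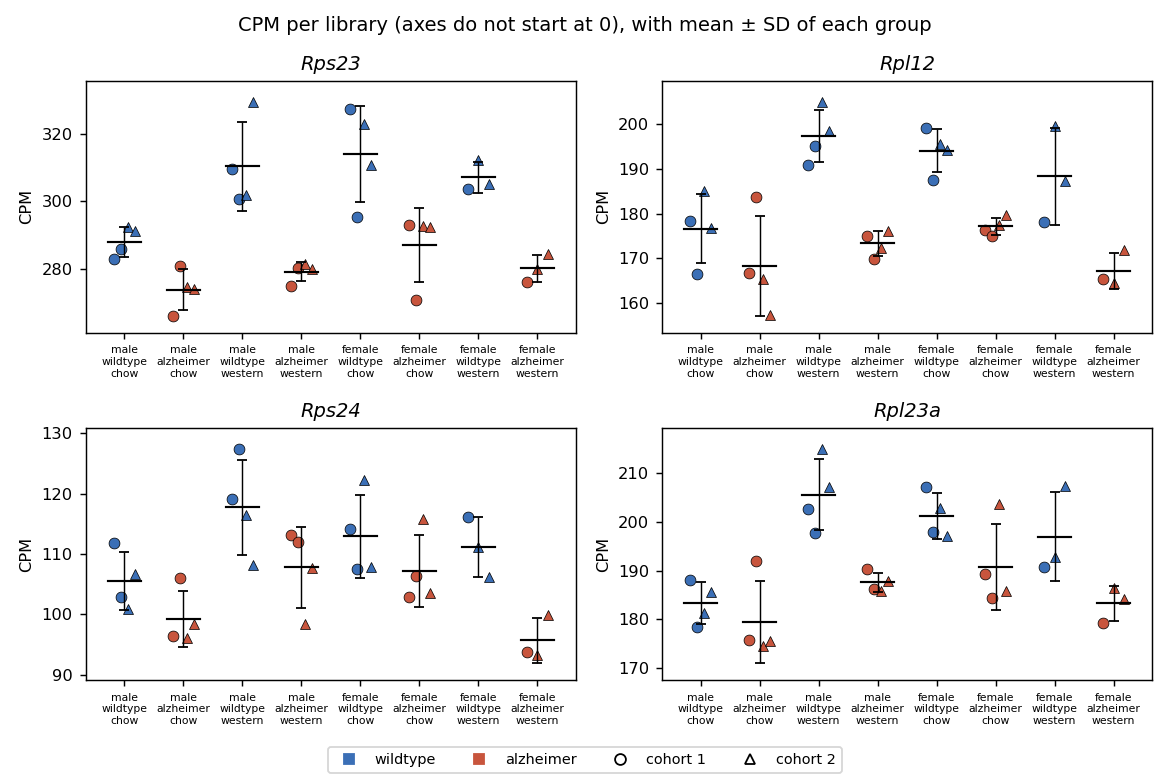
CPM of Rps23, Rpl12, Rps24 and Rpl23a in each library (y axes, not starting at 0) by group, with mean ± SD of 3 or 4 libraries; circles are cohort 1, triangles cohort 2. Rps23 separates the genotypes on the western diet (275 to 284 against 301 to 329 CPM), and in the other 3 genes the medians are higher on the western diet in males and lower in females where both genotypes are pooled.

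These 3 calls rest on few libraries and on the pooled cohorts. Each cohort alone gave 0 calls with edgeR (12 and 49 lower, 0 higher, at an unadjusted p under 0.05), beside 0.189% and 0.0719% of all genes called lower. The values of Rps24 were −0.22 ± 0.077 in cohort 1 and −0.23 ± 0.074 in cohort 2. The count fell to 0 without replicate 1, 3, 7, 11, 15, 16, 18 or 25 and to 1 without replicate 5, 9, 10, 12, 22, 24 or 26. It rose to 5 without replicate 21, 28 or 29, to 9 without replicate 13 and to 15 without replicate 8, and DESeq2 called 10 members. Lower calls over all genes rose as well, from 56 in the main fit to 73 without replicate 13 and 99 without replicate 8. With DESeq2 they were 103. Of the lists, P2ry12 of microglia (−0.46 ± 0.11) and Cldn5 of endothelium (−0.26 ± 0.055) were called lower in this interaction. Tmem119, another microglial marker, had 0.28 ± 0.118 and was not called (adjusted p = 0.247). In the mTORC1 list Ddit4 (1.14 ± 0.14) and Sesn1 (0.30 ± 0.060), both known as stress-induced inhibitors of mTORC1, were higher. These 5 genes were named after their values were seen. At an unadjusted p under 0.05, 1 of 6 neuronal markers was higher, 3 of 6 astrocyte, 2 of 6 oligodendrocyte and 2 of 4 endothelial markers were lower, 5 of 6 microglial markers were lower and 1 higher, and no pericyte, choroid plexus, ependymal or blood marker passed. Over all 12547 genes, 993 were higher and 848 lower at that unadjusted p (edgeR). Summed oligodendrocyte markers were at 10266 ± 1715 and 11545 ± 1597 CPM on chow and western in males and at 11969 ± 1099 and 11139 ± 1840 CPM in females, and astrocyte markers at 4258 ± 252 and 4543 ± 237 CPM in males and 4526 ± 131 and 4532 ± 139 CPM in females. Microglial markers were at 273 ± 18.8 and 291 ± 13.4 CPM in males and 306 ± 19.6 and 295 ± 19.7 CPM in females, and endothelial markers at 217 ± 16.7 and 235 ± 19.6 CPM in males and 240 ± 14.2 and 226 ± 23.01 CPM in females. The part of these cell types in the result was not tested.

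Sex, averaged over genotype and diet, changed no member past the threshold. EdgeR called 0 of 80 (7 higher in females and 0 lower at an unadjusted p under 0.05; 0 by DESeq2 and 0 by limma-voom), beside 0.837% of all genes called in either direction, with a median of 0.021. Rpl35 ran from 242 to 288 CPM in 14 female (median 265) and from 225 to 276 CPM in 16 male libraries (median 252), with overlap, at 0.067 ± 0.023 (adjusted p = 0.141). Rpl18 (0.071 ± 0.024) and Rpl37 (0.054 ± 0.021) followed. Without replicate 8 the count was 1. Of all 12547 genes, 960 were higher in females and 896 lower at an unadjusted p under 0.05 (edgeR). From the lists, the initiation factor Eif2s3, encoded on the X chromosome, was higher in females by 0.68 ± 0.023, and Dkc1, the pseudouridine synthase of ribosomal RNA, was lower by 0.25 ± 0.040 on the log2 scale. Rps4y2, the paralog of Rps4x, had the largest spread of all members, at a residual SD of 0.41 log2 units.

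Between cohorts 0 members were called by edgeR (5 higher and 2 lower at an unadjusted p under 0.05; 3 by DESeq2, 0 by limma-voom), beside 0.0877% of all genes, with a median of 0.0053. The count was 1 without replicate 14 and 2 without replicate 8. Of all 12547 genes, 857 were higher and 718 lower at an unadjusted p under 0.05 (edgeR).

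The members varied little and together. After the groups and cohort were fitted, the median residual SD of log2 CPM was 0.061 over the 80 members, 0.090 over 68 mitochondrial ribosomal protein genes and 0.12 over all tested genes. The sets were not matched for summed count, so these medians do not compare genes at like counts. Among the steadiest were Rpl3 (0.037), Rpl7 (0.039), Rps23 (0.040) and Rpl4 (0.043). The widest, beside Rps4y2, were Rpl3l (0.38), Rplp2 (0.27), Rpl7a (0.26) and Rps6 (0.25), which are also the 5 members of lowest count. Residuals of member pairs had a median correlation of 0.33 over 30 libraries with 21 residual degrees of freedom, and 86.5% of pairs were positive. For mitochondrial ribosomal protein genes the median was 0.13 and for all genes −0.0013. These correlations share libraries, depth and scaling and are a description. Rpl4 had a median correlation of 0.44 with the other members, Rpl3 0.39 and Rpl7a −0.11.

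The genotype difference was set beside the pyrimidine run at the start. Of the 38 members with a run, 29 were called lower, with a median of −0.091, and of the 26 with a promoter entry and no run 17 were called, with a median of −0.10. The sets differ in count: Rpl3l, Rplp2, Rpl7a and Rps6, under 2000 summed counts and not called, are in the set without a run. Rps19bp1, also not called, is there too, while of the members under 2000 counts only Rps4y2, not called, has a run. The difference between the sets was not tested. Rpl12, whose run is shorter than 8, and Rps23, with the run of 21 bases printed above, had differences of −0.14 and −0.12.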

How the data were processed

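PolyA-selected libraries of dorsal hippocampus were sequenced by the authors. Reads went through cutadapt and STAR 2.7.0a, per the submitters' processing notes. The authors' deposited table gives unscaled counts, whole numbers by gene symbol, with totals that differ between libraries. Not given in the sources used here are the counting tool, strand setting, build and treatment of reads that fit several places.

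Counts were fitted in edgeR 4.0.16 (R 4.3.3) on a model of 8 group means plus a cohort term, with TMM scaling and filterByExpr (minimum count 10, minimum total 15), which left 12547 of 17455 genes. Each of 15 contrasts used the two-sided quasi-likelihood F test, Benjamini-Hochberg adjusted over all 12547 genes, and a gene was called at an adjusted p under 0.05. Log2 fold changes are ± SE, which was obtained by dividing the absolute change by the square root of F. CPM are given after TMM. The code was tested on simulated data. No p was computed for the list as a whole.

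Members and lists were chosen with earlier results of these data known. Named are members called in a contrast (the 12 largest a direction), otherwise the 3 with the smallest p, those of largest and smallest spread, paralog pairs, members near the count minimum, called genes of the pathway lists, App and Rps6kb1. Alternatives were median-of-ratios factors, TMM without the members, no low-count filter, 1 CPM in at least 8 libraries, DESeq2 1.42.0, limma-voom (limma 3.58.1), no cohort term, 2 surrogate variables (sva 3.50.0), log2 library size as a covariate, each cohort alone, leaving out the 3 libraries highest in choroid plexus markers, and leaving out each library. RefSeq tables (GRCr8) gave promoter sequences and named copies. Some genes that this rule names are not reported here.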

Additional observations from a re-analysis of the deposited data

Results flagged for a closer look

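In groups of 4 libraries, a library was singled out where its gap to the nearest other exceeded 0.829 of the group's range. Of 36 group values examined, 3 met this, and chance gives about 1 in 20. The summed level of the ribosomal protein genes was 15486 CPM in male_alzheimer_chow replicate 8, against 14323 to 14371 CPM in the other libraries of its group. Rpl23a was at 192.0 CPM in the same library, against 174.5 to 175.7 CPM. Rps23 was at 270.6 CPM in female_alzheimer_chow replicate 14, against 292.2 to 292.9 CPM. The diet effect differed between the sexes by the interaction test for Rps24 (−0.22, adjusted p = 0.0333), Rpl23a (−0.16, adjusted p = 0.0369) and Rpl12 (−0.17, adjusted p = 0.0422), with values higher on the western diet in males and lower in females. The cause of these patterns was not tested.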

How the results depend on the processing

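The count of 59 members lower in alzheimer lay between 51 and 61 under the alternatives that used both cohorts and between 53 and 64 without any 1 library. It was 0 with cohort 1 alone and 34 with cohort 2 alone, which hold fewer libraries. Lower calls over all genes moved as well, from 488 in the main fit to 579 with DESeq2 and 412 without the 3 choroid-rich libraries. They were 415 without replicate 15 and 612 without replicate 8. Under every alternative 79 or 80 members stayed below 0. The median log2 fold change of the members kept within the size of a typical SE in every contrast and alternative. Of 1932 alternative values for 46 named member results, 1640 stayed called, 292 lost the call and 0 changed sign. These 46 were picked as called members with the largest differences in these same data. Most alternatives leave out 1 library or refit the same counts, so a change of sign was unlikely from the outset.

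Smaller counts moved more. For diet by sex (3), the count was 5 without a low-count filter, 10 with DESeq2, 5 with limma-voom, 5 with 2 surrogate variables, 1 with library size as a covariate, 0 in cohort 1, 0 in cohort 2, 1 without the 3 choroid-rich libraries (replicates 30, 20 and 11), and 0 to 15 without single libraries. For genotype on chow (1) it was 0 without the filter, 2 with DESeq2, 2 with limma-voom, 0 with library size, 0 and 0 in the cohorts, 0 without the choroid-rich libraries and 0 to 7 without single libraries. On the western diet (44) it was 0 in cohort 1 and 8 in cohort 2, and 34 to 49 without single libraries. In males (6) it was 13 with TMM without the members, 12 without the filter, 13 with the 1 CPM filter, 23 with DESeq2, 21 with limma-voom, 11 with surrogate variables, 0 in cohort 1, 1 in cohort 2 and 3 to 36 without single libraries. In females (16) it was 28 with DESeq2, 9 with library size, 0 in cohort 1, 2 in cohort 2, 7 without the choroid-rich libraries and 5 to 23 without single libraries. For diet in males (0) it was 1 without the filter, 2 with DESeq2 and 0 to 2 without single libraries, for cohort (0) 1, 3 and 0 to 2, and for sex (0) 0 to 1. Lower calls over all genes moved too: for diet by sex they were 56 in the main fit, 103 with DESeq2 and 38 with library size as a covariate. For genotype on chow, on the western diet and within each sex, calls over all genes under the alternatives are not given here. Beyond the smaller sample of a cohort or a left-out library, the cause of these moves was not tested.

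No paired analysis was possible because the replicate numbers run through all groups and no number is shared between them.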
